A study of Mus musculus with 6 samples.

Results

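The chemokine ligand genes are 32 genes for small secreted or membrane-bound proteins that direct leukocyte movement. Their probes were found by matching the accession of each probe that was not a control to a gene symbol. Of the 32, 31 had at least 1 probe and 25 were measured, among 27412 features measured on the arrays. The rule that chose the genes uses no measured value, and 1 probe, the one with the highest mean, stood for each gene.

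RNA from frozen mouse hepatocellular carcinomas (HCC), 1 tumour per array and 6 in all, was hybridised to 1-colour Agilent arrays. All mice were of strain C57BL/6. The Albumin-derived HCC without CLC, called Albumin tumours here (2 tumours), came from Alb-AID mice killed at 90 weeks of age, for which the labels name neither diet nor tamoxifen. The Epcam-derived HCC came from Epcam-AID mice that had received tamoxifen and 0.1% DDC in the diet for 8 months, and they fall into 2 tumours without CLC, called CLC-free Epcam tumours here, and 2 with CLC, called CLC tumours here. DDC is a porphyrin-raising chemical used to provoke a ductular reaction in mouse liver, and Epcam marks bile duct and ductular progenitor cells. The labels do not expand AID or CLC and give the age at death only for the Alb-AID mice. They do not say whether the 2 tumours of a group came from different animals, so p-values measure only the spread between these tumours.

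Chemokines bind receptors that couple to G proteins on leukocytes, and each leukocyte class carries its own set of receptors. Neutrophils follow ligands of CXCR2, monocytes follow ligands of CCR2, activated T and natural killer cells follow ligands of CXCR3, and CCL20 attracts cells with CCR6. In liver, hepatocytes, bile duct cells, endothelial cells, stellate cells and Kupffer cells can all secrete chemokines, and many of the genes are switched on by NF-kB or by interferons. RNA here came from whole tumour tissue, so fewer cells of a type and less RNA per cell cannot be told apart.

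Levels below are the log2 of the processed signal relative to the array's own 75th percentile, so that 0 is that percentile and 1 unit is a 2-fold change. A level belongs to its probe and does not rank 1 gene against another. Probes that both arrays of 1 or more groups marked as well above background counted as measured. The 75th percentile of signal lay between 285 and 488 over the 6 arrays, the share of probes well above background was 52.0% to 64.6%, and saturation was found at 0 spots. Hepatocyte markers were well above background on every array, 8 of 8 genes, with Ttr, the thyroid hormone carrier transthyretin, between 7.90 and 9.54. Both CLC tumours had higher Krt19, a bile duct keratin, at -1.59 and -1.37, than the 4 tumours without CLC, at -4.94 to -3.52. The arrays lay on 2 slides: slide 1 held both Albumin tumours and CLC replicate 1, and slide 2 held both CLC-free Epcam tumours and CLC replicate 2. Between the Albumin tumours and the CLC-free Epcam tumours, the origin, diet, tamoxifen, age and slide cannot be told apart.

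Of the 25 measured genes, 20 were well above background on all 6 arrays, and 3 (Cxcl2, Ccl11 and Xcl1) passed through a single group, which for Cxcl2 was the Albumin tumours. Cxcl3, Cxcl15, Ccl1, Ccl22 and Ccl28 were not well above background on any array. Cxcl13, a B cell attractant of lymphoid follicles, was well above background on 3 of 6 arrays, with no group complete. Its level was -0.88 and -6.59 in the Albumin tumours, -5.20 and -4.16 in the CLC-free Epcam tumours, and -4.13 and -1.22 in the CLC tumours. No probe matched Cxcl11.

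Promoters are shown for the genes whose levels carry the patterns described below: Cxcl1 and Cxcl2, which were higher in the Albumin tumours than in the CLC-free Epcam tumours, Cxcl9 and Cxcl10, which had their highest signal in 1 CLC tumour, and Ccl20, which was high in 2 tumours. Each line gives the 250 bases before the annotated start, from RefSeq on GRCm38.p6, read 5′ to 3′ on the gene's strand. Capitals mark matches on either strand to the NF-kB consensus, to the core promoter element TATAAA, to GAAANNGAA (a core of interferon-stimulated elements), to TTCNNNGAA (a STAT element) or to TGANTCA (an AP-1 element).
Cxcl1 promoter (chr5:90890995-90891244, plus strand): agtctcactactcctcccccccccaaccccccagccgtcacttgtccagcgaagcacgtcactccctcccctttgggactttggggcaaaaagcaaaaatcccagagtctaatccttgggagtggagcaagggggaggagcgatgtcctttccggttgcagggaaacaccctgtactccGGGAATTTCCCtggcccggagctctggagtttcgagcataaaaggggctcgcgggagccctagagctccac
Cxcl2 promoter (chr5:90903649-90903898, plus strand): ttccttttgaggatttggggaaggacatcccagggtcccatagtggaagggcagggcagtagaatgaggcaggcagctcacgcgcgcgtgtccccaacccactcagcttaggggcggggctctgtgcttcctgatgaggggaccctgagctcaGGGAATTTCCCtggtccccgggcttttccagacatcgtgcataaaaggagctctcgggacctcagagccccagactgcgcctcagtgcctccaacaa
Cxcl9 promoter (chr5:92328080-92328329, minus strand): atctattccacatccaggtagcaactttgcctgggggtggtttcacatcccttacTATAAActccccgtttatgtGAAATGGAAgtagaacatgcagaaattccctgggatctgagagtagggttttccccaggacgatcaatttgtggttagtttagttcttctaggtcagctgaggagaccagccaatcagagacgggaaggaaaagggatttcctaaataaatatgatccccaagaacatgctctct
Cxcl10 promoter (chr5:92348890-92349139, minus strand): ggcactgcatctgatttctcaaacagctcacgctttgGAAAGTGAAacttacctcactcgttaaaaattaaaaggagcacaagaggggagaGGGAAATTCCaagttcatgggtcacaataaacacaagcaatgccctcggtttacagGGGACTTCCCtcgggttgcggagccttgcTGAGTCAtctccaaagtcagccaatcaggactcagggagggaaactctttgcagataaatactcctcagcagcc
Ccl20 promoter (chr1:83116516-83116765, plus strand): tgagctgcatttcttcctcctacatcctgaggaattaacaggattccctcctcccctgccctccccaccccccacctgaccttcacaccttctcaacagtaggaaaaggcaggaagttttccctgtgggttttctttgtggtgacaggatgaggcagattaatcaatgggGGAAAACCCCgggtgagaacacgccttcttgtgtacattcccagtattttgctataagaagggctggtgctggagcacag

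In Cxcl1 the NF-kB consensus matched on both strands, 1 base apart and overlapping, starting 71 bases before the start site. The same overlapping pair of matches began 97 bases before the start of Cxcl2, so these neighbouring genes carried the same capitals. Cxcl10 held matches to the NF-kB consensus at 159 and 103 bases, to GAAANNGAA at 213 bases and to TGANTCA at 74 bases before the start. Cxcl9 held GAAANNGAA at 175 bases and TATAAA at 195 bases. Ccl20 held 1 match to the NF-kB consensus, on the minus strand, at 80 bases.

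Promoter entries were available for 23 of the 32 genes, 24 promoters in all because Ccl25 had 2. The NF-kB consensus matched 6 of the 24 (25%), against 3.9% of all 32851 promoters of the same length. Among those 6, Cxcl1, Cxcl2 and Cxcl3 lie in the same run of genes and carry the same matched bases, so the 6 are not independent. GAAANNGAA also matched 6 of 24, against 7.13% of all promoters, and TATAAA matched 9 of 24 (37.5%), against 12.4%. TTCNNNGAA and TGANTCA each matched 2 of 24 (8.33%), against 7.02% and 6.75% of all promoters. A match is a description of the letters and not a bound site.

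Between the groups without CLC, the neutrophil-attracting genes Cxcl1 and Cxcl5 were lower in the CLC-free Epcam tumours than in the Albumin tumours, and the homeostatic ligands Cxcl12 and Ccl25 were higher. None of these differences passed the test over all features. By limma with Benjamini-Hochberg adjustment over 27412 features, 0 of 25 genes passed an adjusted p of 0.05, where 0.244% of all features did (67 features). At an unadjusted p under 0.05 there were 3 of 25 genes (12%), against 20% of all features. The 2 tumours of each group did not overlap, with the CLC-free Epcam tumours higher, for 9 genes (36%), against 30.4% of all features, and with them lower for 4 genes (16%), against 24.8%. The median log2 difference was 0.30 over the 25 genes and 0.06 over all features, with 19 genes higher and 6 lower. Under background correction by normexp the split was 15 higher and 10 lower. Without Albumin replicate 2 the median was 0.65, and without Albumin replicate 1 it was 0.18, with 14 higher and 11 lower.

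Against the CLC-free Epcam tumours, most ligand genes were higher in the CLC tumours, but none passed the test and the direction of the median turned without CLC replicate 2. The median difference was 0.38 over the 25 genes, with 19 higher and 6 lower, and -0.06 over all features. Without CLC replicate 2 it was -0.14, with 12 genes higher and 13 lower, and without CLC replicate 1 it was 1.30. By limma, 0 of 25 genes and 0% of all features passed an adjusted p of 0.05, and 2 genes (8%), Ccl5 and Ccl17, had an unadjusted p under 0.05, against 3.48% of all features (954). The groups did not overlap, with CLC higher, for 4 genes (16%), against 10.3% of all features, and with CLC lower for 1 gene (4%), Cxcl12, against 19.8%. Replicate 2 is the only CLC tumour on slide 2 beside the 2 tumours without CLC, and the median within that slide was 1.30. Of 8 bile duct markers, 6 were higher and 2 lower in this comparison, with a median of 1.62 and 0 past the adjusted threshold (4 had an unadjusted p under 0.05, against 3.48% of all features). Their summed signal was 29.9 to 46.3 in the CLC-free Epcam tumours and 62.4 to 111 in the CLC tumours. In the CLC tumours that sum was mostly Spp1, with a mean level of 6.30, against -1.48 for Krt19 and -0.22 for St14. The mean log2 over the 8 markers was -1.69 and -2.30 in the CLC-free Epcam tumours and -0.54 and -0.36 in the CLC tumours. The part of bile duct cells in the ligand levels was not tested.

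The comparison of CLC tumours against Albumin tumours shares samples with each of the other comparisons. Between these groups the origin, diet, tamoxifen, age and CLC component cannot be told apart. By limma 0 of 25 genes passed an adjusted p of 0.05, against 0.062% of all features (17 features). An unadjusted p under 0.05 was found for 5 genes (20%), against 16% of all features. The groups did not overlap, with CLC higher, for 10 genes (40%), against 23.8% of all features, and with CLC lower for 1 gene (4%), Cxcl2, which passed the filter through the Albumin tumours alone, against 27%. The median difference was 0.76 over the 25 genes and -0.01 over all features, with 21 genes higher and 4 lower. It was 0.38 without CLC replicate 2, with 16 higher and 9 lower, 1.35 without CLC replicate 1 and 1.36 without Albumin replicate 2.

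**Figure D1:**
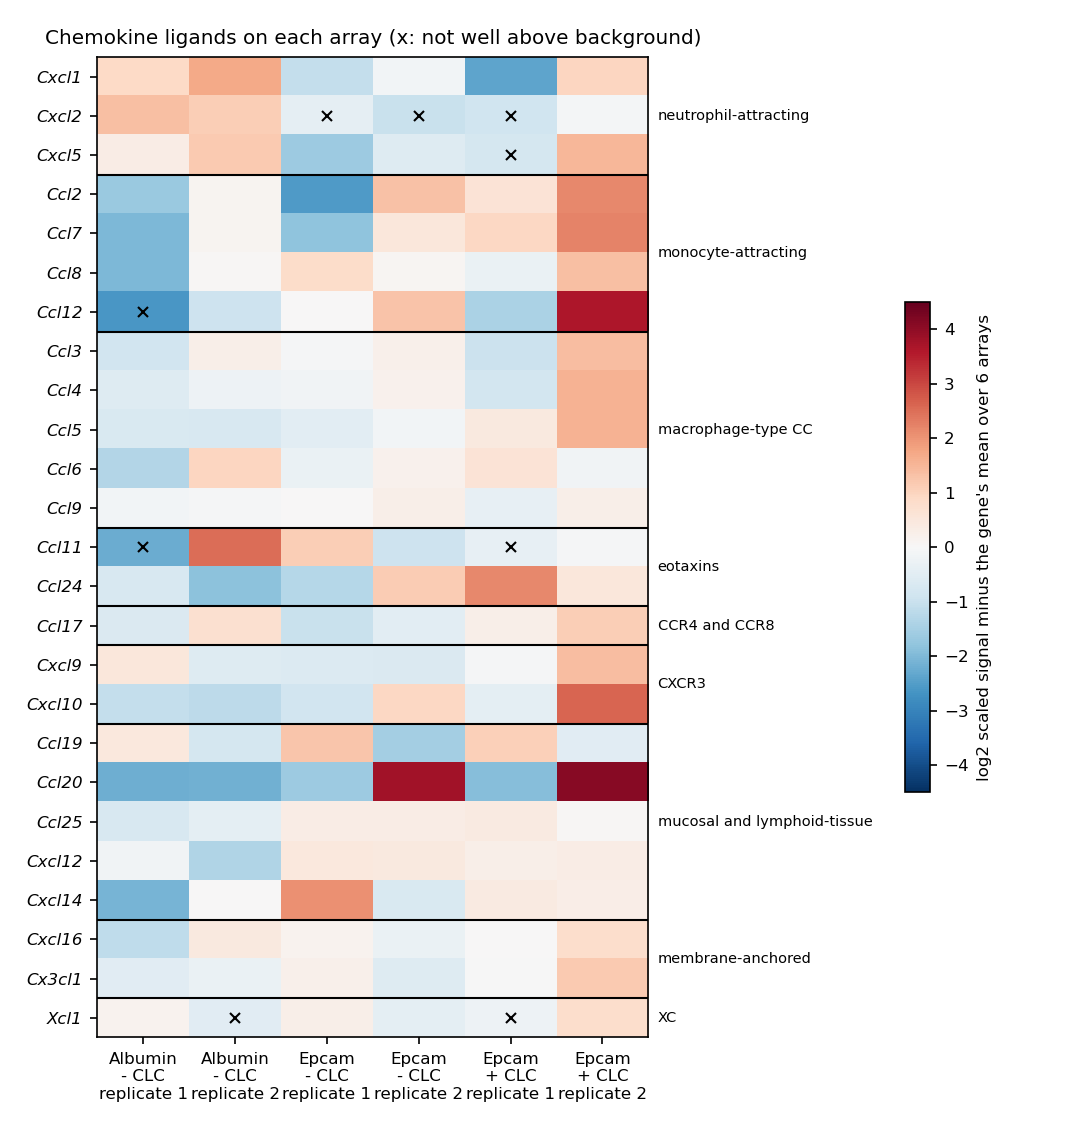
Heat map of the 25 measured chemokine ligand genes (rows, grouped by role) on the 6 arrays (columns), as log2 scaled signal minus the gene's own mean over the arrays; crosses mark values not well above background. The column of CLC replicate 2 is the highest of its row for 15 genes, and Ccl20 is high only in that tumour and in CLC-free Epcam replicate 2.

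The 25 genes differed more between tumours of the same group than features did in general. The pooled within-group SD had a median of 1.07 over the genes and 0.35 over all features, and it was above 1 for 14 genes (56%), against 7.7% of all features. The range over the 6 tumours had a median of 2.42 over the genes and 1.13 over all features.

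CLC replicate 2 had the highest signal for 15 of the 25 genes (60%), against 10.1% of all features, and the lowest for 0. These were Ccl2, Ccl7, Ccl8, Ccl12, Ccl3, Ccl4, Ccl5, Ccl17, Cxcl5, Cxcl9, Cxcl10, Ccl20, Cxcl16, Cx3cl1 and Xcl1. The count was between 14 and 16 under each other scaling tried, against 7.18% to 12.3% of all features. Within the pair with CLC, replicate 2 was above replicate 1 for 20 of 25 genes (80%), against 51.7% of all features. The median difference was 1.13 over the genes and 0.02 over all features. The 2 differed by more than 1 for 16 genes (64%), against 15.4% of all features. They lay on different slides, so tumour and slide cannot be told apart in this pair. Albumin replicate 1 stood at the other end, with the lowest signal for 9 genes (36%), against 20.6% of all features.

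**Figure D2:**
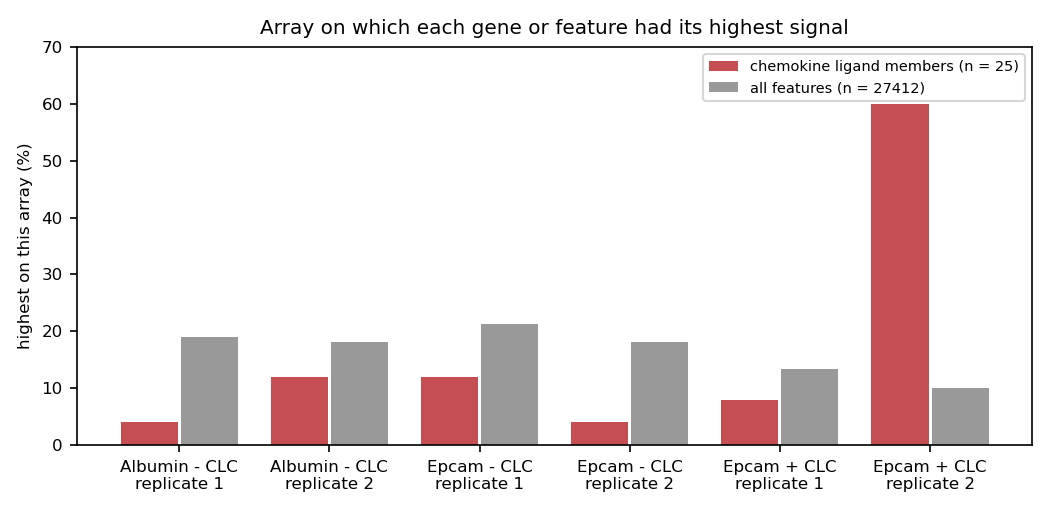
Share of the 25 measured chemokine ligand genes (red) and of all 27412 features (grey), in percent, whose highest log2 scaled signal fell on each of the 6 arrays. Replicate 2 of the CLC tumours takes 60% of the genes and 10.1% of all features.

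Cxcl1, Cxcl2, Cxcl3, Cxcl5 and Cxcl15 encode ligands that draw neutrophils, chiefly through CXCR2. The 3 that were measured, Cxcl1, Cxcl2 and Cxcl5, were lower in both CLC-free Epcam tumours than in both Albumin tumours, and all 3 differences were negative under each scaling tried, though Cxcl2 counted as measured through the Albumin tumours alone. Cxcl1 (the keratinocyte chemoattractant KC) read 3.54 and 4.36 in the Albumin tumours, 1.56 and 2.53 in the CLC-free Epcam tumours, and 0.28 and 3.61 in the CLC tumours. The last pair spanned nearly the whole range of the gene. The difference was -1.90 ± 1.09 (SE) between the groups without CLC, with an unadjusted limma p of 0.134 and an adjusted p of 0.377.

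Cxcl2 (macrophage inflammatory protein of the CXC class) carries the same promoter capitals as Cxcl1. It read -4.0 and -4.24 in the Albumin tumours, -5.74 and -6.35 in the CLC-free Epcam tumours, and -6.25 and -5.44 in the CLC tumours. Both CLC-free Epcam tumours were not well above background, and of the CLC tumours only replicate 2 was. Cxcl2 was therefore at least 2.56-fold higher in the Albumin tumours than in the CLC-free Epcam tumours, where the bound takes the dim arrays at their lowest signal well above background or their own value. The fitted limma difference, which uses the dim values as they stand, was -1.92 ± 0.39, with an adjusted p of 0.103. Cxcl2 passed the filter on dim probes through the Albumin tumours alone, where it was high, so the filter favoured this direction and its place in the counts of lower genes supports nothing.

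Cxcl5, an epithelial neutrophil attractant, read -2.79 and -1.92 in the Albumin tumours, -4.75 and -3.68 in the CLC-free Epcam tumours, and -3.91 and -1.61 in the CLC tumours. The 2 groups without CLC did not overlap, while CLC replicate 1 lay in the range of the CLC-free Epcam tumours and CLC replicate 2 above both Albumin tumours. The Cxcl5 value of CLC replicate 1 was not well above background. The differences were -1.86 ± 0.83 (adjusted p = 0.285) between the groups without CLC and 1.46 ± 0.83 (adjusted p = 0.999) between CLC tumours and CLC-free Epcam tumours. Of the 6 measured neutrophil markers, 3 were higher and 3 lower in the CLC-free Epcam tumours than in the Albumin tumours (2 higher and 4 lower under normexp), with a median of 0.07. Elane, the neutrophil elastase gene, had the smallest p among them and was higher, by 1.31 (adjusted p = 0.0997), and Ngp was not well above background on any array. The markers' summed signal, in units of the 75th percentile, was 4.11 to 4.27 in the Albumin tumours and 5.92 to 7.04 in the CLC-free Epcam tumours. Bright genes weigh most in such a sum, and Elane alone had group means of 0.72 and 2.03, so the sum is not separate from the Elane difference. The mean log2 over the markers was -1.71 and -1.80 in the Albumin tumours and -1.21 and -1.70 in the CLC-free Epcam tumours.

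**Figure D3:**
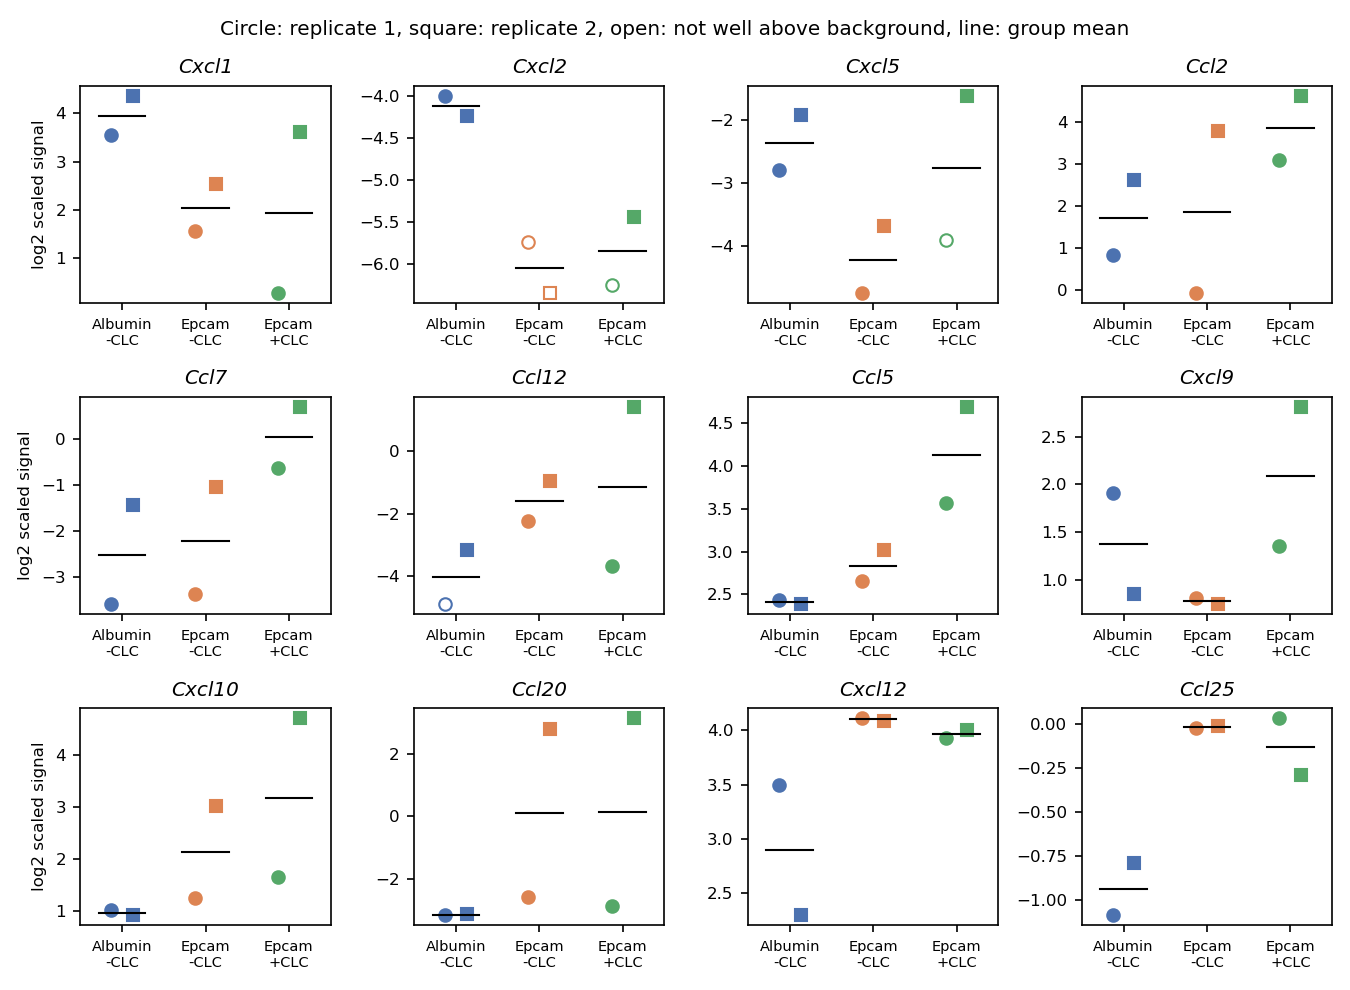
Log2 scaled signal (vertical axes, each with its own range) of 12 chemokine ligand genes in each tumour, by group; circles are replicate 1, squares replicate 2, open symbols not well above background, and lines group means. Cxcl1, Cxcl2 and Cxcl5 sit higher in both Albumin tumours than in both CLC-free Epcam tumours, and Ccl20 splits each Epcam-derived pair.

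Ccl2, Ccl7, Ccl8 and Ccl12 encode monocyte attractants, of which Ccl2, Ccl7 and Ccl12 act through CCR2. All 4 were measured, and all 4 had their highest signal in CLC replicate 2. Ccl2 read 0.84 and 2.62 in the Albumin tumours, -0.07 and 3.80 in the CLC-free Epcam tumours, and 3.11 and 4.63 in the CLC tumours. The CLC tumours lay above both Albumin tumours, and they overlapped the CLC-free Epcam tumours, whose 2 values differed more than the groups did. The difference with against without CLC in the Epcam-derived tumours was 2.01 ± 1.37 (unadjusted p = 0.197, adjusted p = 0.999).

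Ccl7, the neighbour of Ccl2 in the genome, read -3.58 and -1.44 in the Albumin tumours, -3.36 and -1.05 in the CLC-free Epcam tumours, and -0.63 and 0.68 in the CLC tumours. Both CLC tumours were above the other 4. The differences were 2.23 ± 1.05 against CLC-free Epcam tumours (unadjusted p = 0.0801, adjusted p = 0.999) and 2.53 ± 1.05 against Albumin tumours (unadjusted p = 0.0546, adjusted p = 0.321).

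Ccl12, the mouse ligand MCP-5, read -4.88 and -3.17 in the Albumin tumours, -2.22 and -0.95 in the CLC-free Epcam tumours, and -3.68 and 1.39 in the CLC tumours. The first of these values was not well above background, and the CLC tumours spanned all the others but that 1. The difference between the groups without CLC was 2.44 ± 1.66 (adjusted p = 0.447), and that between CLC tumours and Albumin tumours was 2.88 ± 1.66 (adjusted p = 0.458). Ccl8 read -2.82 and -0.76, 0.00 and -0.71, and -1.11 and 0.54 in the same order of groups, and its difference between the groups without CLC was 1.44 ± 0.85 (adjusted p = 0.388). In that comparison all 4 genes were higher on the Epcam-derived side, and 3 of 4 under normexp.

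Among macrophage and monocyte markers, the smallest p belonged to Adgre1, the macrophage surface protein F4/80, which read 0.71 and 0.92 in the Albumin tumours, 1.90 and 2.41 in the CLC-free Epcam tumours, and 2.38 and 2.62 in the CLC tumours. Its difference between the groups without CLC was 1.35 ± 0.30 (adjusted p = 0.115). Of the 13 measured markers, 10 were higher and 3 lower in that comparison, with a median of 0.05 (9 higher and 4 lower under normexp), and 0 passed the adjusted threshold (3 had an unadjusted limma p under 0.05, against 20% of all features). Their summed signal was 73.7 to 121 in the Albumin tumours, 121 to 137 in the CLC-free Epcam tumours and 133 to 182 in the CLC tumours, and the larger of the last pair was replicate 1, not replicate 2. The part of macrophage content in the ligand levels was not tested.

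Ccl3, Ccl4, Ccl5, Ccl6 and Ccl9 encode CC ligands of macrophages and T cells that attract monocytes, macrophages and activated T cells. All 5 were measured, and all 5 were higher in the CLC-free Epcam tumours than in the Albumin tumours, 4 of 5 under normexp, with a median of 0.39, 0 past the adjusted threshold and 0 with an unadjusted limma p under 0.05. Ccl5 (RANTES) read 2.43 and 2.39 in the Albumin tumours, 2.65 and 3.02 in the CLC-free Epcam tumours, and 3.56 and 4.69 in the CLC tumours. The 3 groups did not overlap in that order. The differences were 0.42 ± 0.42 between the groups without CLC (adjusted p = 0.602), 1.29 ± 0.42 with against without CLC (unadjusted p = 0.0247, adjusted p = 0.999) and 1.72 ± 0.42 with CLC against Albumin tumours (unadjusted p = 0.00777, adjusted p = 0.167).

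Ccl3 and Ccl4, the MIP-1 pair, shared a pattern in which the 2 CLC tumours were the lowest and the highest of all 6. Ccl3 read -2.42 and -1.31 in the Albumin tumours, -1.62 and -1.32 in the CLC-free Epcam tumours, and -2.54 and -0.18 in the CLC tumours. Ccl4 read -1.24 and -0.89, -0.84 and -0.47, and -1.52 and 0.90 in the same order. Ccl6 was lowest in Albumin replicate 1, at 0.96, and highest in Albumin replicate 2, at 3.23, with the other 4 tumours between 1.98 and 2.90. Ccl9, a macrophage and myeloid ligand, varied least of the 25 genes across the 6 tumours, from 3.87 to 4.52, and its differences in the 3 comparisons were 0.22, -0.20 and 0.02, each with an SE of 0.31.

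Ccl11 and Ccl24 encode eotaxins, which attract eosinophils through CCR3. Ccl24 read -2.93 and -4.06 in the Albumin tumours, -3.49 and -1.06 in the CLC-free Epcam tumours, and -0.05 and -1.70 in the CLC tumours. Both CLC tumours exceeded both Albumin tumours and overlapped the CLC-free Epcam tumours. The difference from the Albumin tumours was 2.62 ± 0.97 (unadjusted p = 0.0376, adjusted p = 0.284).

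Ccl11, which lies in the same run of genes as Ccl2, Ccl7, Ccl12 and Ccl8, did not share their pattern. It read -6.16 and -1.42 in the Albumin tumours, -2.81 and -4.84 in the CLC-free Epcam tumours, and -4.29 and -3.99 in the CLC tumours. It was not well above background in the first Albumin tumour and in CLC replicate 1, and its highest value was in Albumin replicate 2. Of 8 eosinophil and mast cell markers 4 were measured, all 4 higher in the CLC-free Epcam tumours than in the Albumin tumours (3 of 4 under normexp) and all 4 lower in the CLC tumours than in the CLC-free Epcam tumours, with medians of 0.58 and -0.73. None had an unadjusted limma p under 0.05, and Epx, which encodes eosinophil peroxidase, was not well above background on any array.

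Ccl17, a ligand of CCR4 made by dendritic cells and macrophages, was the measured member of its group, since Ccl1 and Ccl22 were not well above background on any array. It read -3.70 and -2.31 in the Albumin tumours, -4.04 and -3.53 in the CLC-free Epcam tumours, and -2.77 and -1.92 in the CLC tumours. The Epcam-derived pairs did not overlap. The difference with against without CLC was 1.44 ± 0.56 (unadjusted p = 0.0456, adjusted p = 0.999). Xcl1, made by natural killer and CD8 T cells and attracting dendritic cells with XCR1, stayed between -4.93 and -3.61 and was well above background on 4 of 6 arrays, with its highest value in CLC replicate 2.

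Cxcl9 and Cxcl10 encode ligands of CXCR3 that interferon-gamma induces, and both had their highest signal in CLC replicate 2. Cxcl9 read 1.91 and 0.85 in the Albumin tumours, 0.81 and 0.75 in the CLC-free Epcam tumours, and 1.36 and 2.81 in the CLC tumours. The Epcam-derived pairs did not overlap, and the difference between them was 1.31 ± 0.59 (unadjusted p = 0.0703, adjusted p = 0.999). Cxcl10 read 1.01 and 0.91 in the Albumin tumours, 1.25 and 3.01 in the CLC-free Epcam tumours, and 1.64 and 4.72 in the CLC tumours. The 4 Epcam-derived tumours were above both Albumin tumours, and the replicate 2 tumours were the highest. The difference with CLC against Albumin tumours was 2.22 ± 1.08 (unadjusted p = 0.0897, adjusted p = 0.39).

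The same tumour had the highest signal for other genes that interferon-gamma induces. All 15 measured genes of a list of 16 (Ido1 was not well above background on any array) were highest in CLC replicate 2, under the main scaling and each of the other scalings tried, against 7.18% to 12.3% of all features. Psmb8, an immunoproteasome subunit, read 1.08 and 1.32 in the Albumin tumours, 2.97 and 3.07 in the CLC-free Epcam tumours, and 1.70 and 3.15 in the CLC tumours. Gbp3, an interferon-induced GTPase, read -0.50 and -0.95, 0.48 and 1.36, and 0.17 and 2.38 in the same order. The summed signal of the 15 genes was 34.3 to 41.9 in the Albumin tumours, 49.0 and 74.6 in the CLC-free Epcam tumours, and 41.6 and 100.3 in the CLC tumours. Between CLC tumours and CLC-free Epcam tumours 12 of the 15 were higher, with a median of 0.29 (11 higher under normexp), and 0 passed the adjusted threshold (0 had an unadjusted limma p under 0.05). Ifng itself was below the filter, with its values between -6.00 and -3.77 and well above background on 1 array. T and natural killer cells are the usual source of interferon-gamma. Their markers had a summed signal of 22.0 to 38.5 in the Albumin tumours, 30.7 to 47.6 in the CLC-free Epcam tumours and 17.5 to 29.2 in the CLC tumours, with Ncr1 not well above background on any array. Bright genes weigh most in that sum, and the mean log2 over the markers ranked the tumours otherwise. It was -1.58 and -1.75 in the Albumin tumours, -1.03 and -1.44 in the CLC-free Epcam tumours, and -1.27 and -0.99 in the CLC tumours, highest in CLC replicate 2. Of these markers 11 were measured, 7 of them higher and 4 lower in the CLC tumours than in the CLC-free Epcam tumours, and 5 had their highest signal in CLC replicate 2. Gzmb, the granzyme B gene of cytotoxic cells, was 2.06 higher in the CLC tumours than in the Albumin tumours (adjusted p = 0.0751). For Gzmb, 1 of the 2 Albumin values was not well above background. In that comparison 7 of the 11 markers were higher and 4 lower. Klrb1c, the marker with the next smallest p, was not well above background in either CLC tumour. It was at least 1.64-fold lower there than in the CLC-free Epcam tumours (adjusted limma p of the fitted difference = 0.999). Klrb1c could not pass the filter through the CLC tumours, so the filter favoured this direction. The part of T and natural killer cells in these levels was not tested.

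Ccl20 encodes the ligand of CCR6 that epithelial cells make in inflammation, and it had the widest range of the 25 genes. It read -3.16 and -3.12 in the Albumin tumours, -2.58 and 2.81 in the CLC-free Epcam tumours, and -2.86 and 3.15 in the CLC tumours. Each Epcam-derived pair held 1 high and 1 low tumour, the range over the 6 was 79.2-fold, and the low ones lay close to the Albumin tumours. The difference from the Albumin tumours was 3.25 ± 2.42 without CLC (adjusted p = 0.484) and 3.28 ± 2.42 with CLC (adjusted p = 0.559), and the difference with against without CLC was 0.03 ± 2.42, with a 95% interval of -5.99 to 6.05.

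Both high tumours lay on slide 2, which also held 1 low tumour, at -2.58. Ccr6, the receptor of CCL20 on T helper, B and dendritic cells, was also highest in those 2 tumours, at -1.42 and -0.95, against -4.41 to -3.28 in the other 4. Tnfaip3, an NF-kB-induced feedback inhibitor, was highest in the same 2 tumours, at 2.05 and 1.95, against -0.62 to 0.53. Ccr6 and Tnfaip3 were singled out after their values were seen. Over all features these 2 tumours were also the most alike of any pair, with r = 0.9778. The pairs of the same group had r = 0.9568 (CLC-free Epcam) and 0.9653 (CLC). Whether the shared high levels go beyond that general likeness was not tested. Over the 11 measured inducers and NF-kB feedback genes, 5 had their highest signal in CLC-free Epcam replicate 2 and 3 in CLC replicate 2.

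Cxcl12, Ccl19, Ccl25, Cxcl14, Ccl28 and Cxcl13 are expressed in resting tissue or lymphoid organs. With Ccl20, 5 of these 7 genes were measured, and all 5 were higher in the CLC-free Epcam tumours than in the Albumin tumours, with a median of 1.21, or 4 of 5 under normexp and under quantile normalization. Cxcl12 (SDF-1), the ligand of CXCR4 made by stromal cells, read 3.49 and 2.30 in the Albumin tumours, 4.12 and 4.09 in the CLC-free Epcam tumours, and 3.93 and 4.0 in the CLC tumours. The 4 Epcam-derived tumours lay close together and above both Albumin tumours. The difference between the groups without CLC was 1.21 ± 0.43 (unadjusted p = 0.0325, adjusted p = 0.214), and that with CLC against Albumin tumours was 1.07 ± 0.43 (unadjusted p = 0.0492, adjusted p = 0.31). The other Cxcl12 probe gave 1.24 and 0.72 for the same differences.

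Ccl25 (TECK), the ligand of CCR9 known from thymus and small intestine, read -1.09 and -0.79 in the Albumin tumours, -0.02 and -0.01 in the CLC-free Epcam tumours, and 0.04 and -0.29 in the CLC tumours. All 4 Epcam-derived tumours were above both Albumin tumours, by a difference of 0.92 ± 0.27 without CLC (unadjusted p = 0.0156, adjusted p = 0.17) and 0.81 ± 0.27 with CLC (unadjusted p = 0.0256, adjusted p = 0.248). Of the other Ccl25 probes, 1 gave 0.99 and 0.70 for these differences, and the dimmest, well above background on 4 of 6 arrays, gave 0.28 and -0.01. Hepatocyte markers ran the other way, 7 of 8 lower in the CLC-free Epcam tumours (6 of 8 under quantile normalization), with a median of -0.58, 0 past the adjusted threshold and 3 with an unadjusted limma p under 0.05, against 20% of all features. Markers of stellate cells and fibroblasts, which are known to make Cxcl12, were higher for 8 of 10 (7 of 10 under normexp), with a median of 0.70. Of these markers 0 passed the adjusted threshold, and 0 had an unadjusted limma p under 0.05, against 20% of all features. Their summed signal was 34.9 to 64.4 in the Albumin and 38.6 to 109.6 in the CLC-free Epcam tumours. The mean log2 over the markers overlapped, at -0.19 and 0.82 in the Albumin tumours and 1.80 and 0.28 in the CLC-free Epcam tumours. The part of either cell type in the levels of these ligands was not tested.

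Ccl19, the CCR7 ligand of lymphoid stroma, had 1 higher and 1 lower tumour in every group, reading -1.53 and -2.79 in the Albumin tumours, -0.76 and -3.53 in the CLC-free Epcam tumours, and -0.94 and -2.53 in the CLC tumours. The groups overlapped in each comparison. Cxcl14 (BRAK), made by epithelium and fibroblasts, read -2.04 and 0.08, 2.12 and -0.63, and 0.45 and 0.37 in the same order, with a difference of 1.73 ± 1.06 between the groups without CLC (adjusted p = 0.406). Its second probe failed the filter.

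Cxcl16 and Cx3cl1 are made as membrane-anchored proteins that proteases of the ADAM family shed. Cx3cl1 (fractalkine) read 0.33 and 0.51 in the Albumin tumours, 1.06 and 0.26 in the CLC-free Epcam tumours, and 0.80 and 1.98 in the CLC tumours. The CLC tumours lay above both Albumin tumours, by 0.97 ± 0.49 (adjusted p = 0.404), and overlapped the CLC-free Epcam tumours, where the difference was 0.73 ± 0.49 (unadjusted p = 0.19, adjusted p = 0.999). Cxcl16, the CXCR6 ligand, read -0.35 and 1.20, 0.95 and 0.50, and 0.81 and 1.56 in the same order, and its 2 probes gave differences between the groups without CLC of 0.30 and 0.28.

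**Figure D4:**
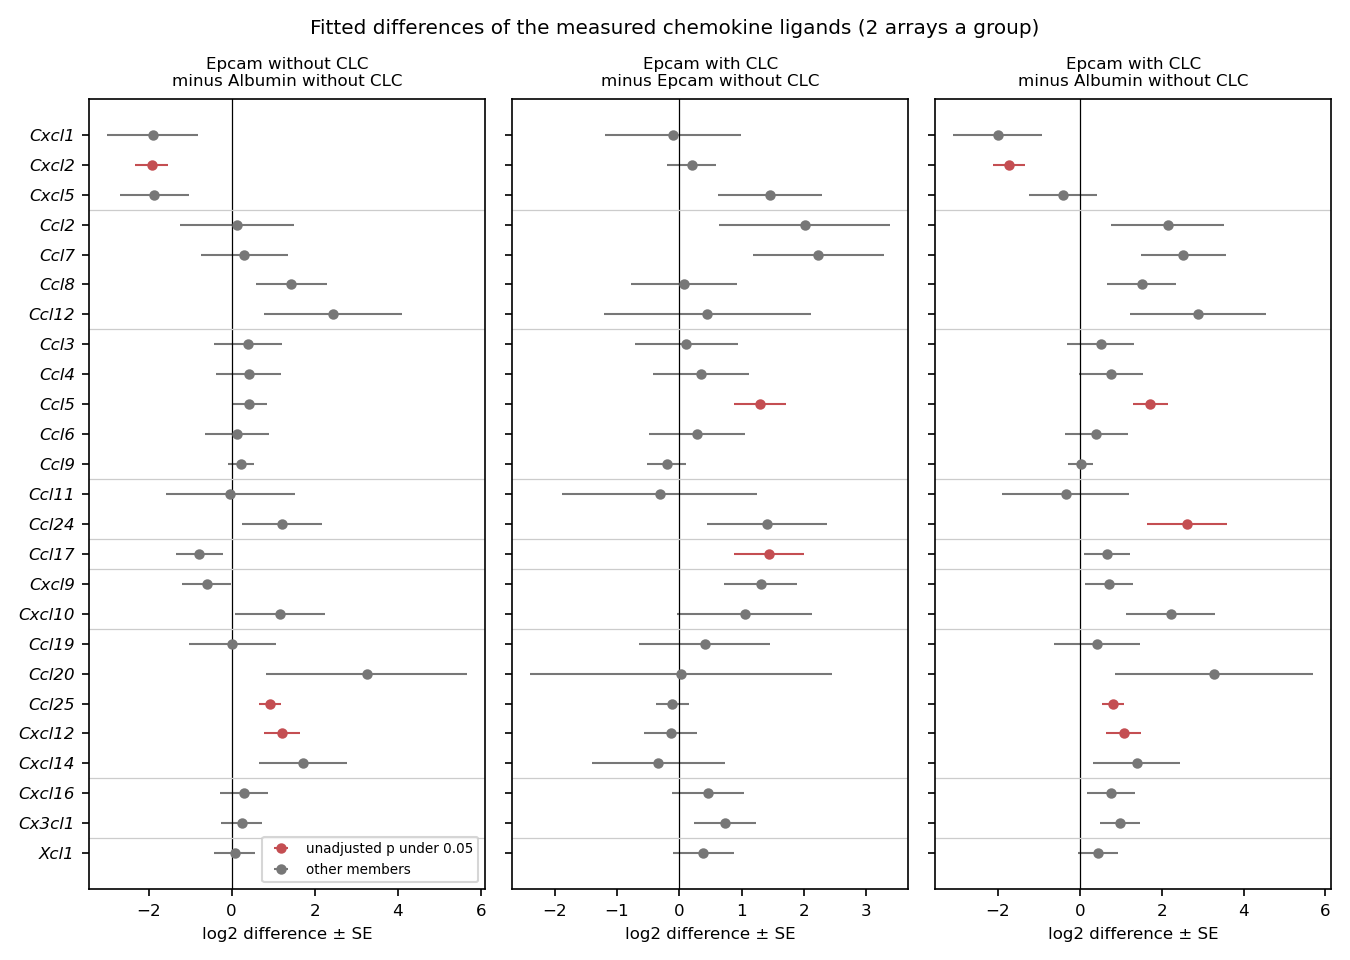
Fitted log2 difference (points) and its SE (bars) of each of the 25 measured chemokine ligand genes in the 3 comparisons; red marks an unadjusted limma p under 0.05. The red points number 3, 2 and 5, and no gene passed the threshold after adjustment over all 27412 features.

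Of 18 chemokine receptor genes, 10 were measured, and Ccr4 and Xcr1 were not well above background on any array. Ccr1, the receptor of several of the ligands above, and Cxcr2, that of Cxcl1, Cxcl2 and Cxcl5, were each well above background on 1 array. In the CLC-free Epcam tumours, 8 of the 10 were higher and 2 lower than in the Albumin tumours, with a median of 0.34, and 0 passed the adjusted threshold (2 had an unadjusted limma p under 0.05, against 20% of all features). Under normexp the split was 5 higher and 5 lower. CLC replicate 2 had the highest signal for 5 of the 10 receptors.

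Of the receptors with the smallest p, Cx3cr1 and Ccr3 were higher in Epcam-derived tumours. Cx3cr1, the fractalkine receptor of monocytes and macrophages, read -0.28 and -0.17 in the Albumin tumours, 2.23 and 2.78 in the CLC-free Epcam tumours, and 1.53 and 3.63 in the CLC tumours. Its difference between the groups without CLC was 2.73 ± 0.69 (unadjusted p = 0.00837, adjusted p = 0.139), while that of its ligand gene Cx3cl1 was 0.24 ± 0.49. Ccr3, the eotaxin receptor, read -4.53 and -6.01, -2.63 and -2.70, and -2.59 and -4.22 in the same order, and 1 of the 2 Albumin values was not well above background. Ccr2, the monocyte receptor of Ccl2, read -2.73 and -2.53, -2.54 and -0.55, and -1.67 and 0.13, and Cxcr3, the receptor of Cxcl9 and Cxcl10, read -1.57 and -2.35, -1.69 and -2.10, and -1.58 and -0.64. For Cx3cr1 and Ccr3 all 4 Epcam-derived tumours were above both Albumin tumours. Ccr2 and Cxcr3 overlapped between the groups without CLC, and Cxcr3 also between the CLC tumours and the Albumin tumours.

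**Figure D5:**
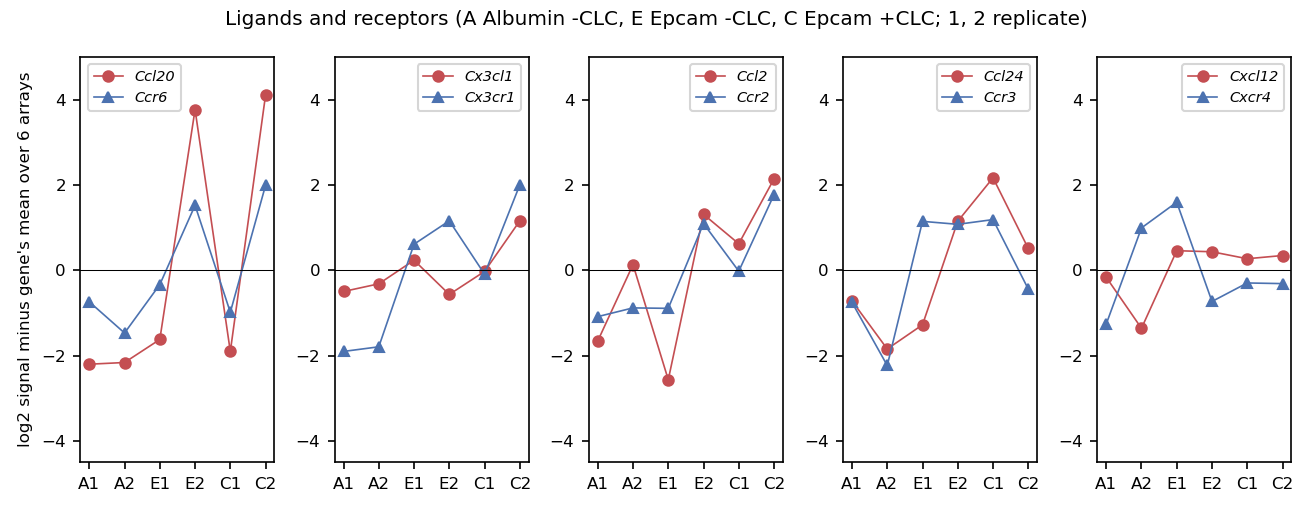
Log2 scaled signal of 5 ligand genes (red circles) and of a receptor gene of each (blue triangles), each minus its own mean over the 6 tumours; A is Albumin-derived without CLC, E Epcam-derived without CLC, C Epcam-derived with CLC, and the digit is the replicate. Ccl20 and Ccr6 are both high in E2 and C2, and Cx3cr1 is lowest in both A tumours.

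Of 6 atypical receptor genes, whose products bind chemokines without G protein signalling, 4 were measured, all 4 higher in the CLC-free Epcam tumours than in the Albumin tumours, or 3 of 4 under normexp, with 0 past the adjusted threshold and 1 with an unadjusted limma p under 0.05, against 20% of all features. Ackr2, a scavenger of inflammatory CC ligands, read -1.70 and -1.74 in the Albumin tumours, -0.63 and 0.10 in the CLC-free Epcam tumours, and -0.05 and -0.92 in the CLC tumours, a difference of 1.46 ± 0.41 between the groups without CLC (unadjusted p = 0.0136, adjusted p = 0.163). Of 7 genes for proteases that trim or shed chemokines, 6 were measured, 4 of them higher and 2 lower in the CLC-free Epcam tumours than in the Albumin tumours (5 higher under quantile normalization), with 0 past the adjusted threshold and 1, the matrix protease Mmp2, with an unadjusted limma p under 0.05, against 20% of all features. Dpp4, which cleaves the amino end of Cxcl10 and Cxcl12 proteins, read -0.25 and -2.19 in the Albumin tumours, -0.33 and -0.41 in the CLC-free Epcam tumours, and 1.19 and 0.58 in the CLC tumours. The CLC tumours were above the other 4, and their difference from the Albumin tumours was 2.11 ± 0.65 (adjusted p = 0.229).

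Of 15 genes for inducing cytokines and NF-kB feedback proteins, 11 were measured, 8 of them higher and 3 lower in the CLC-free Epcam tumours than in the Albumin tumours, with a median of 0.43, 0 past the adjusted threshold and 3 with an unadjusted limma p under 0.05, against 20% of all features. Under normexp 5 were higher and 6 lower. Il4, a type 2 cytokine, was not well above background in either Albumin tumour and was at least 1.1-fold higher in the CLC-free Epcam tumours. The fitted limma difference, which uses the dim values as they stand, was 1.89 ± 0.37 (unadjusted p = 0.00261, adjusted p = 0.0996). Il4 could not pass the filter through the Albumin tumours, so the filter favoured this direction. Il1b read -2.49 and -2.55 in the Albumin tumours, -2.10 and -1.0 in the CLC-free Epcam tumours, and -1.29 and -0.76 in the CLC tumours. Tnf ran the other way, reading 0.45 and -0.56, -0.49 and -0.95, and -2.01 and -1.11 in the same order, with a difference of -1.50 ± 0.49 between CLC tumours and Albumin tumours (unadjusted p = 0.0237, adjusted p = 0.242). Nfkbia, which encodes the NF-kB inhibitor IkB-alpha, was at 2.74 and 2.94 in the Albumin tumours and between 3.42 and 3.51 in the other 4.

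Of 9 chemokine ligand genes outside the 32, 5 were measured. Pf4, a platelet granule chemokine, read 0.51 and 0.45 in the Albumin tumours, 2.09 and 1.58 in the CLC-free Epcam tumours, and 1.94 and 1.56 in the CLC tumours, a difference of 1.36 ± 0.30 between the groups without CLC (unadjusted p = 0.00477, adjusted p = 0.115). All 5 measured platelet and megakaryocyte markers, Pf4 and Ppbp among them, were higher in that comparison, but 2 of 5 under normexp. Of the 5 markers, 0 passed the adjusted threshold and 2, Pf4 among them, had an unadjusted limma p under 0.05 (against 20% of all features). Their summed signal was 1.59 to 1.60 in the Albumin and 3.21 to 4.91 in the CLC-free Epcam tumours. Bright genes weigh most in that sum, and Pf4 alone had group means of 0.48 and 1.84. The sum is therefore not separate from the Pf4 difference. The mean log2 over the markers was -3.76 and -3.64 in the Albumin tumours and -2.15 and -3.22 in the CLC-free Epcam tumours. Ccl21a was not well above background in either Albumin tumour and read -1.06 and -0.42 in the CLC tumours, at least 15.0-fold higher (adjusted p = 0.166), but near-identical gene copies leave its identity uncertain. Cxcl17, a mucosal ligand, was not well above background in either CLC tumour and was at least 3.42-fold higher in the Albumin tumours (adjusted p = 0.153).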

How the data were processed

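Per the file headers, Agilent Feature Extraction 11.5.1.1 made the deposited scanner tables of spot intensity, whose processed signal is background-corrected and not scaled between arrays. The authors' table holds the same intensity times 1 factor per array (1.64 to 2.42, origin unknown), on a linear, uncentred scale, with column medians of 55.0 to 80.0. Each labelling used 0.1 µg of RNA, per the labels' protocols.

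Control and outlier spots were left out, log2 signal minus each array's 75th percentile was averaged per probe, and probes that both arrays of 1 or more groups marked as well above background were kept. Accessions were matched to RefSeq symbols on GRCm38.p6, used for names and promoters because the array design is on mm9: 32994 of 56605 probes received a symbol. The brightest passing probe stood for a gene. One limma 3.58.1 model (lmFit, eBayes; R 4.3.3) over all 6 arrays, with 3 residual degrees of freedom, gave two-sided p-values, adjusted by Benjamini-Hochberg over 27412 features at 0.05; the model was tested on simulated data. An exact permutation test of 2 against 2 cannot give a p below 0.333. Values after ± are SE. Cross-hybridisation between paralogous probes was not tested.

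Deviations of same-numbered tumours correlated at r = -0.159, 0.0619 and 0.232 across features; only the last, between the Epcam-derived groups, was above 0.1, and nothing in the labels pairs the tumours, so they were not paired. Normexp used median spot and background signals with an offset of 50. The genes, lists and tests were chosen with earlier results of these data known. In each comparison the text describes the genes with the 6 smallest p-values and the 3 largest differences, all other measured genes by level, and up to 4 genes with the smallest p of each further list. Alternatives covered scaling, background, filter, probe choice, slide, replicate block and leaving out each tumour. One item is not reported here.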

Additional observations from a re-analysis of the deposited data

How the results depend on the processing

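The count of genes past the adjusted threshold was 0 of the measured genes in each comparison under every alternative run, and the 23 gene differences described by rule kept their direction and stayed short of the threshold in all 392 fits. The median difference over the genes, 0.30 between the groups without CLC, was 0.18 without Albumin replicate 1 and 0.65 without Albumin replicate 2, and it moved further in the comparisons with CLC. Between CLC tumours and CLC-free Epcam tumours it was 1.30 with slide as a block, 1.30 also within slide 2 alone, and it ranged from -0.14 (without CLC replicate 2) to 1.30 (without CLC replicate 1) when each tumour was left out. With CLC against Albumin tumours the leave-one-out range was 0.38 (without CLC replicate 2) to 1.36 (without Albumin replicate 2), and within slide 1 it was 0.38. These slide fits set a lone tumour against 2 and, as in leaving 1 out, assume it varies like the others. Slide could not be fitted between the groups without CLC. Normexp moved the median of all features from 0.06 to -0.16 between the groups without CLC and from -0.01 to -0.12 with CLC against Albumin tumours; relative to it the genes' medians were 0.37 and 0.81.

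Calls over all features, 67, 0 and 17 in the order of the comparisons, were 135 and 66 in the comparisons with Albumin tumours under normexp, 107 and 66 under quantile normalization, and 1 and 1 without a filter on dim probes. Requiring all 6 arrays gave 32 in the comparison without CLC, the mean of a gene's probes 110, and trended robust eBayes 27 with CLC against Albumin tumours. A replicate block gave 11, 0 and 0 calls, with 0 of the genes among them and gene medians of 0.30, 0.38 and 0.76, and leaving out 1 tumour gave 0 to 16. Setting dim values at the array floor, chosen after seeing the data, gave 45, 0 and 18. Dim probes have only a bound where no array of a group is well above background, and 2 tumours a group limit every comparison.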
